A study of Drosophila melanogaster with 6 samples.

Results

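The Rebers-Riddiford cuticle protein genes of Drosophila melanogaster were examined in embryos that lack clbn (Caliban) and in w1118 embryos. Genes were taken by symbol (Cpr, Lcp, Ccp84 or Edg followed by a number, with Pcp and Acp1 added), and each was represented by its brightest probe set over the 6 arrays. This gave 80 genes of the 11982 that had a probe set with a single gene symbol. A further 7 probe sets carried such a symbol together with another one and were assigned to no gene. Acp1 was on a probe set of that kind. The RefSeq gene table holds 99 symbols that match, and those without a probe set of their own were not analysed here. Of the 80 genes, 78 had 1 probe set and 2 had 2.

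The groups were a clbn knock-out stock (3 arrays) and w1118, labelled wild type (3 arrays). Both carry the label w1118 as strain background, and the w1118 stock bears a white-eye mutation on the X chromosome. Embryos of both, of 0 to 24 h, came from stocks held at 25 °C, and their RNA was hybridised to Affymetrix arrays as biotin-labelled cRNA. The labels state neither how the knock-out was made nor a backcross, so loss of clbn and other differences between the stocks cannot be told apart. Nothing in the labels tells whether replicate arrays were made from independent embryo collections. The p-values therefore describe the spread among these arrays, which may be technical in part.

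Insect cuticle is a composite of chitin fibres and proteins secreted by the epidermis and by other ectodermal epithelia such as the trachea. The Rebers-Riddiford family is its largest group of structural proteins, and its members share a conserved chitin-binding region. In the embryo these genes are known to be switched on late, when the epidermis lays down the cuticle of the first larva, and other members serve the later larval, pupal and adult cuticles. Many of them lie side by side in clusters, and most symbols carry the cytological number of the polytene band where the gene maps (Cpr65Av at 65A, for example).

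Values are log2 expression, so that a difference of 1 is a doubling. A gene was called changed when its difference between genotypes had a Benjamini-Hochberg adjusted p below 0.05 in the limma fit over all 18769 probe sets. All array medians lay between 6.17 and 6.36, and the mean over all genes between 7.50 and 7.52. The medians of the knock-out arrays (6.172, 6.295 and 6.298) were all below those of the w1118 arrays (6.324, 6.303 and 6.357). The first quartile of all values was 4.33. No detection call was used, so for dim genes signal and background are not separated. The targeted gene Clbn, on arm 3R, read 5.42, 5.27 and 5.14 in the knock-out arrays, against 7.86, 8.25 and 8.44 in the w1118 arrays (log2 difference −2.91, SE 0.15, adjusted p = 7.01e-05). Where its probes lie relative to the deleted part was not analysed here.

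Of the 80 cuticle protein genes, 20 (25%) were called lower in the knock-out, against 2.63% of all genes (2.07% of all probe sets). None was called higher by limma, against 1.88% of all genes, and 2 had an unadjusted p under 0.05 in that direction. The median log2 difference of the 80 was −0.23, against 0.02 over all genes. Differences below 0 were seen in 66 of the 80, against 44% of all genes. In 42 genes (52.5%) every knock-out array lay below every w1118 array, against 13.1% of all genes. In 2 genes, Cpr67Fa2 and Cpr78E, every knock-out array lay above, against 15.7% of all genes. In whole embryos, fewer epidermal cells and less RNA per cell cannot be told apart.

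**Figure D1:**
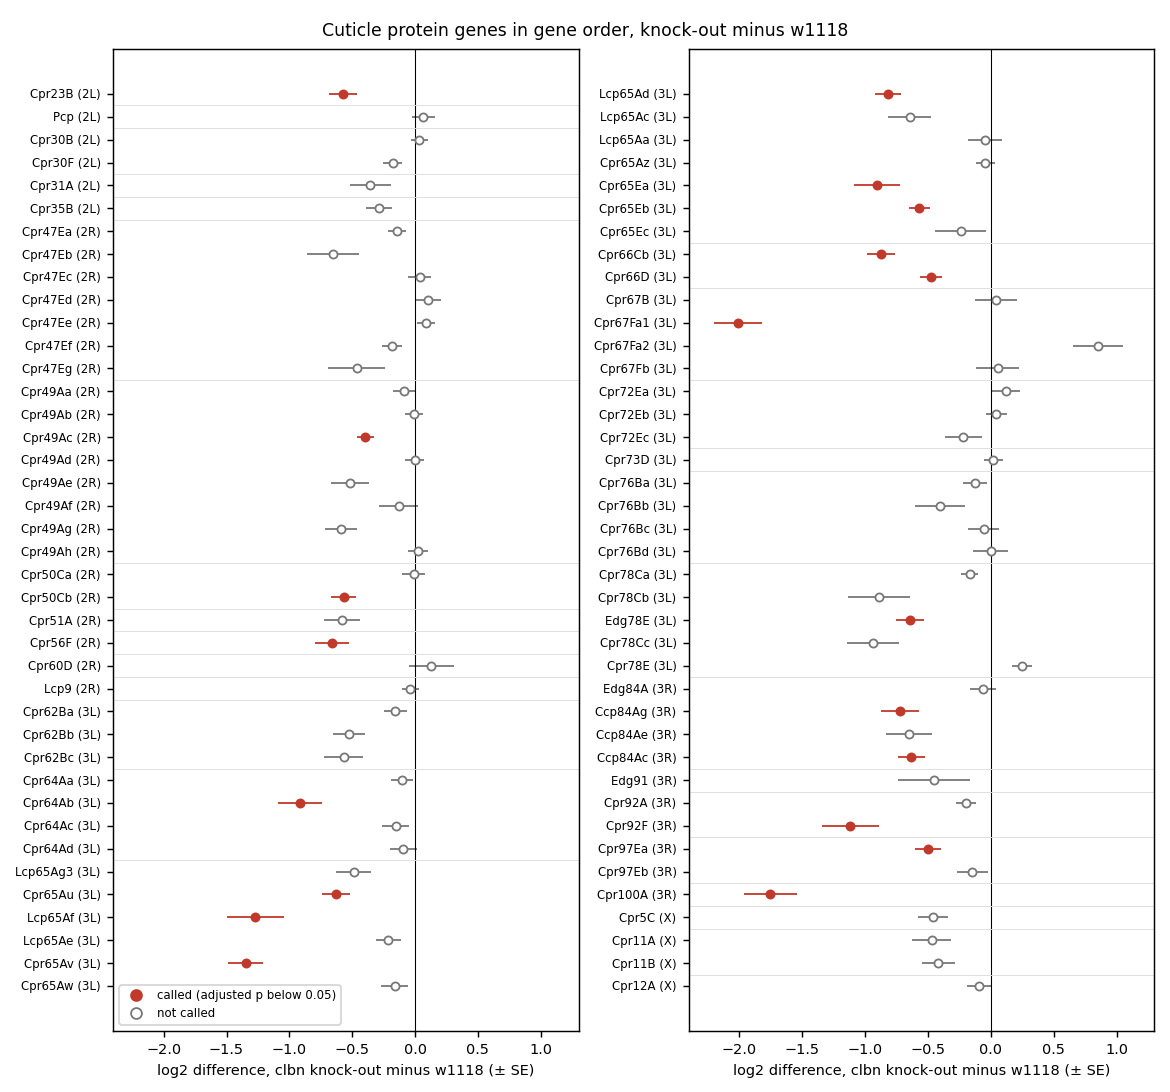
Log2 difference (knock-out minus w1118, x axis) of each of the 80 cuticle protein genes, in gene order along each chromosome arm, with bars of ± SE; thin lines separate cytological numbers. The 20 called genes (filled) all lie left of 0, between −2.01 for Cpr67Fa1 and −0.40 for Cpr49Ac.

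The knock-out embryos were lowest, relative to w1118, for Cpr67Fa1. It read 7.34, 8.08 and 7.85 in the knock-out arrays, against 9.71, 9.60 and 9.99 in the w1118 arrays, and was 4.03-fold lower (log2 −2.01, SE 0.19, adjusted p = 0.00149). Cpr100A, on 3R and the only measured member at its cytological number, was 3.37-fold lower (log2 −1.75, SE 0.21, adjusted p = 0.00506). Its arrays read 7.12, 7.77 and 7.53 in the knock-out, against 9.16, 8.91 and 9.61 in w1118. For both genes the highest knock-out array stayed more than 1 log2 unit under the lowest w1118 array. Of the called genes, 5 were at least 2-fold lower, the others being Cpr65Av, Lcp65Af and Cpr92F.

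**Figure D2:**
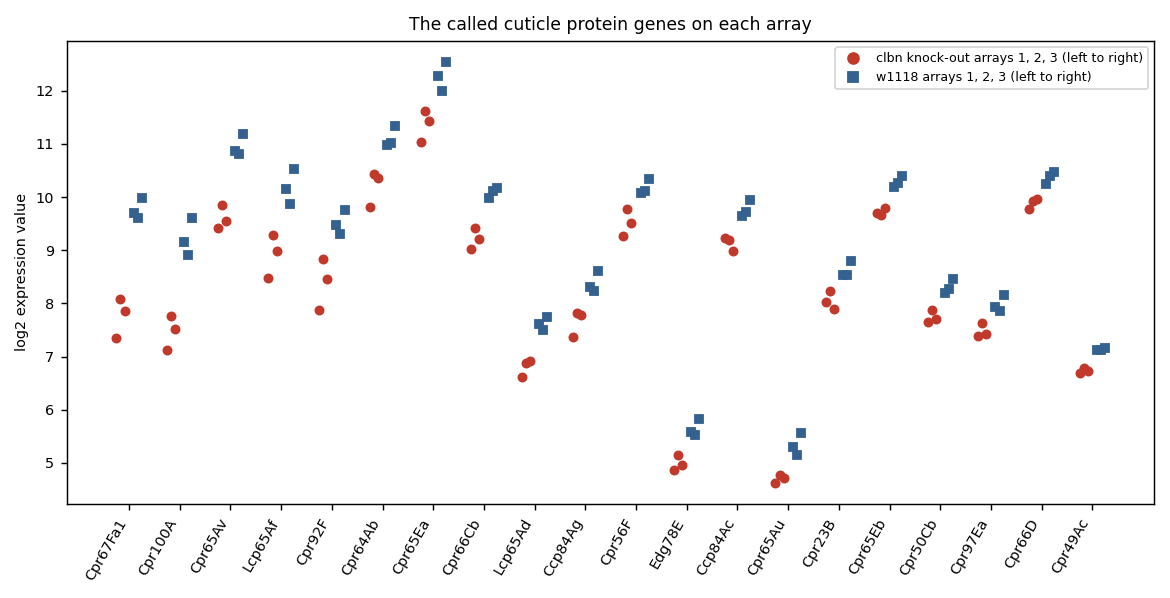
Log2 expression (y axis) of the 20 called cuticle protein genes on each array, ordered from the largest decrease to the smallest, with knock-out arrays as circles and w1118 arrays as squares. In all 20 genes the 3 knock-out arrays lie below the 3 w1118 arrays, and knock-out array 1 is the lowest of its group in most.

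How firmly these calls held depended on single arrays. Without knock-out array 1, 14 of the 20 genes were still called. The number was 12 without knock-out array 2, 6 without knock-out array 3, 6 without w1118 array 1, 10 without w1118 array 2 and 5 without w1118 array 3. The share of all probe sets called lower moved as well, from 1.87% when knock-out array 1 was left out to 0.575% when w1118 array 1 was. Cpr67Fa1, Cpr100A, Cpr65Av, Cpr66Cb and Lcp65Ad were called under all 15 alternative settings. Cpr65Eb lost its call in the fit without w1118 array 3 (adjusted p = 0.0512; its 15 alternatives ran from 0.00554 to that value). The other 14 each lost it without at least 3 of the 6 arrays. With the replicate number as a block, 22 members were called lower. That fit dropped Cpr23B (adjusted p = 0.0533) and Cpr97Ea (0.0548) and added Cpr62Bb (0.0382), Lcp65Ac (0.0441), Cpr78Cc (0.0467) and Cpr11B (0.0479).

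The largest cluster was that of cytological number 65 on 3L, with 13 genes measured. All 13 had differences below 0 (median −0.57, range −1.35 to −0.04). Of these 6 were called lower, against 2.63% of all genes. In 9 every knock-out array lay below every w1118 array, against 13.1% of all genes. The cluster holds the Lcp65A larval cuticle protein genes, interleaved with Cpr65A genes at 65A, and a separate group of 3 at 65E. The 10 genes at 65A, taken in gene order, differed unevenly. At its start Lcp65Ag3, the brightest, was at 12.27, 12.70 and 12.63 in the knock-out arrays, against 13.07, 12.81 and 13.19 in the w1118 arrays, and was not called (log2 −0.49, SE 0.14, adjusted p = 0.114). The groups did not overlap, but the array 2 of each genotype came close to the other. A probe set shared by its neighbours in name, Lcp65Ag1 and Lcp65Ag2, differed by −0.58 (SE 0.15, adjusted p = 0.0897), and one shared by Cpr65Ax1 and Cpr65Ax2 by −0.02 (SE 0.18, adjusted p = 0.966).

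Further along the 65A row, Cpr65Au fell 1.55-fold (log2 −0.63, SE 0.11, adjusted p = 0.0279), from low levels throughout. It read 4.63, 4.77 and 4.72 in the knock-out arrays, near the first quartile of the arrays, against 5.30, 5.15 and 5.57 in the w1118 arrays, so the size of the fold is uncertain. Lcp65Af, a larval cuticle protein gene, fell 2.41-fold (log2 −1.27, SE 0.23, adjusted p = 0.0268). Its arrays read 8.47, 9.28 and 9.0 in the knock-out, against 10.16, 9.88 and 10.53 in w1118. Cpr65Av, separated from it in the row only by the dim Lcp65Ae, fell 2.55-fold (log2 −1.35, SE 0.14, adjusted p = 0.00245). Its knock-out arrays read 9.42, 9.85 and 9.55, against 10.87, 10.81 and 11.18 in w1118, a gap of close to 1 log2 unit between the nearest arrays.

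On the far side of the dim Cpr65Aw lay 3 more Lcp65A genes. Lcp65Ad fell 1.76-fold (log2 −0.82, SE 0.11, adjusted p = 0.00726), with 6.61, 6.89 and 6.91 in the knock-out arrays, against 7.61, 7.51 and 7.75 in the w1118 arrays. Lcp65Ac had a difference of −0.65 (SE 0.17, adjusted p = 0.0942, and 0.0441 with the replicate block), with 9.50, 9.77 and 9.90 in the knock-out, against 10.35, 10.05 and 10.72 in w1118. Lcp65Aa, the next gene, was at 8.33, 8.28 and 8.57 in the knock-out, against 8.45, 8.19 and 8.68 in w1118, and its groups overlapped (log2 −0.05, SE 0.14, adjusted p = 0.898). A second, dimmer probe set of Lcp65Aa differed by −0.39 (SE 0.15, adjusted p = 0.201). The row ended with Cpr65Az, whose mean of 4.31 over the 6 arrays lay at the first quartile. Thus genes with clear signal at 65A ranged from −1.35 to −0.05, and the 3 dimmest, Lcp65Ae, Cpr65Aw and Cpr65Az, from −0.21 to −0.04.

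At 65E all 3 genes were bright. Cpr65Ea fell 1.87-fold (log2 −0.91, SE 0.18, adjusted p = 0.0392), with 11.03, 11.62 and 11.44 in the knock-out arrays, against 12.27, 11.99 and 12.55 in the w1118 arrays. Cpr65Eb fell 1.48-fold (log2 −0.57, SE 0.08, adjusted p = 0.0121), with 9.70, 9.66 and 9.79 in the knock-out, against 10.19, 10.27 and 10.40 in w1118. Its replicates were the tightest of the 3. Cpr65Ec overlapped between genotypes (log2 −0.24, SE 0.20, adjusted p = 0.588).

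The genes at cytological number 67 on 3L had large differences of both signs, with a median of 0.05 and differences from −2.01 to 0.85. They are a local group of 3 at 67F and Cpr67B, which its symbol places at 67B. Cpr67Fa1, already described, and Cpr67Fa2 are next to each other in gene order and had differences of opposite sign. Cpr67Fa2 read 8.33, 8.87 and 8.73 in the knock-out arrays, against 7.94, 7.38 and 8.06 in the w1118 arrays (log2 0.85, SE 0.20, adjusted p = 0.065). It was higher in every knock-out array but was not called, and its adjusted p ran from 0.0143 to 0.165 over its alternatives. It passed the threshold with arrays centred on their medians (0.0175), with array weights (0.0143), with adjustment over genes (0.0489) and without knock-out array 1 (0.037).

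Another probe set, annotated to both Cpr67Fa1 and Cpr67Fa2 and therefore assigned to neither, read 9.15, 9.84 and 9.68 in the knock-out arrays, against 10.59, 10.43 and 10.95 in the w1118 arrays (log2 −1.10, SE 0.20, adjusted p = 0.0269). Since a probe set for both exists, how far the signals of the 2 genes are separate was not tested. Cpr67Fb, beside them, and Cpr67B differed by 0.05 (SE 0.17, adjusted p = 0.907) and 0.04 (SE 0.17, adjusted p = 0.935), with overlapping arrays.

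**Figure D3:**
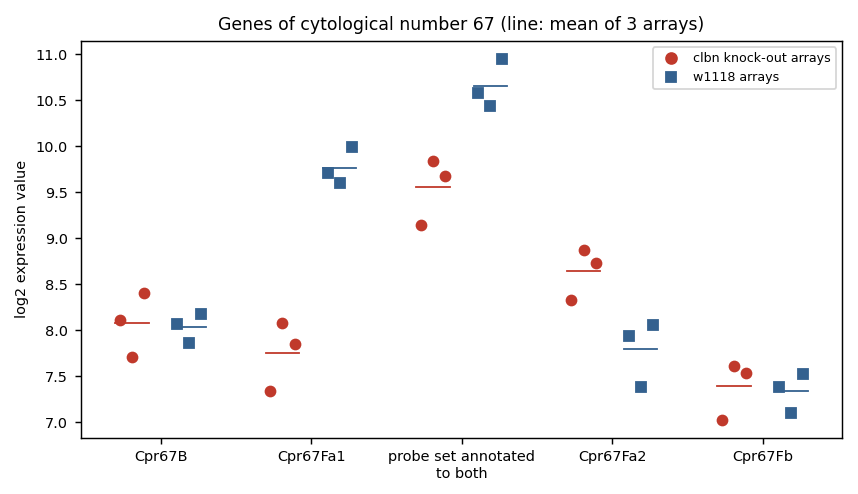
Log2 expression (y axis) on each array for the genes of cytological number 67 and for the probe set annotated to both Cpr67Fa1 and Cpr67Fa2, with knock-out arrays as circles, w1118 arrays as squares and lines at the means of 3 arrays. Cpr67Fa1 and the shared probe set are lower in all knock-out arrays, Cpr67Fa2 is higher in all of them, and Cpr67B and Cpr67Fb overlap.

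At cytological number 78 on 3L, 4 of 5 genes had non-overlapping arrays below w1118, against 13.1% of all genes, and the cluster median was −0.65. A local group of 3 lies at 78C, and their symbols place Edg78E and Cpr78E at 78E. Only Edg78E was called. Edg78E is named as an ecdysone-dependent gene and is known as a pupal cuticle gene of the prepupal epidermis. It read 4.87, 5.16 and 4.97 in the knock-out arrays, against 5.57, 5.53 and 5.82 in the w1118 arrays (1.56-fold lower, log2 −0.65, SE 0.11, adjusted p = 0.0221), low levels at which the fold is uncertain. The brightest and most different member was Cpr78Cc, with 9.51, 10.20 and 10.04 in the knock-out, against 10.83, 10.55 and 11.19 in w1118. It stood just outside the threshold (log2 −0.94, SE 0.21, adjusted p = 0.0564, and 0.0467 with the replicate block). Cpr78Cb was close to it (log2 −0.89, SE 0.25, adjusted p = 0.1). Cpr78E was the exception, at 6.99, 6.83 and 6.86 in the knock-out, against 6.63, 6.59 and 6.72 in w1118 (log2 0.25, SE 0.08, adjusted p = 0.145).

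The 4 genes measured at cytological number 84 on 3R had a median of −0.64, and 2 were called. Ccp84Ag fell 1.65-fold (log2 −0.72, SE 0.15, adjusted p = 0.0428), with 7.37, 7.82 and 7.79 in the knock-out arrays, against 8.32, 8.23 and 8.61 in the w1118 arrays. Ccp84Ac fell 1.55-fold (log2 −0.63, SE 0.11, adjusted p = 0.0224), with 9.23, 9.20 and 8.98 in the knock-out, against 9.64, 9.73 and 9.95 in w1118. Ccp84Ae, the brightest of the cluster, was at 10.02, 10.15 and 10.22 in the knock-out, against 10.77, 10.39 and 11.19 in w1118, and was not called (log2 −0.65, SE 0.18, adjusted p = 0.104). Its w1118 arrays were spread more widely than those of the knock-out. A probe set shared by Ccp84Aa and Ccp84Ab, assigned to neither, was called lower (log2 −1.0, SE 0.20, adjusted p = 0.0428), at 7.59, 8.4 and 8.02 in the knock-out, against 8.93, 8.81 and 9.26 in w1118. Edg84A, another prepupal gene of the ecdysone-dependent set, had overlapping arrays (log2 −0.06, SE 0.10, adjusted p = 0.815).

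The clusters at 62 and 64 on 3L each held bright and dim genes. At 62, with a median of −0.53, all 3 genes lay below w1118 in every knock-out array and none was called. The brightest and most different, Cpr62Bc, read 10.42, 10.97 and 10.67 in the knock-out, against 11.18, 11.10 and 11.47 in w1118 (log2 −0.57, SE 0.16, adjusted p = 0.0991). At 64, with a median of −0.13, Cpr64Ab alone was called. It fell 1.89-fold (log2 −0.92, SE 0.17, adjusted p = 0.0331), with 9.82, 10.43 and 10.36 in the knock-out, against 10.99, 11.03 and 11.34 in w1118. Cpr64Ad in the same cluster was among the brightest cuticle protein genes on the arrays and hardly differed. It read 11.96, 12.08 and 11.96 in the knock-out, against 12.02, 11.95 and 12.30 in w1118 (log2 −0.09, SE 0.10, adjusted p = 0.7).

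The clusters of arm 2R held many dim genes, and over their brighter genes alone the median was −0.56 at 47 (2 genes) and −0.46 at 49 (4 genes). Of the 7 genes at 47, with a median of −0.14, none was called and 4 had differences below 0. Cpr47Eg, the brightest, read 11.03, 11.47 and 11.64 in the knock-out, against 11.88, 11.41 and 12.25 in w1118, and its groups overlapped through w1118 array 2 (log2 −0.47, SE 0.23, adjusted p = 0.324). Cpr47Eb had the largest difference of the cluster (log2 −0.65, SE 0.21, adjusted p = 0.144), with 7.23, 7.01 and 7.12 in the knock-out, against 7.88, 7.26 and 8.17 in w1118. Of the 8 genes at 49, with a median of −0.11, Cpr49Ac was called. It read 6.68, 6.79 and 6.74 in the knock-out, against 7.12, 7.12 and 7.16 in w1118 (1.32-fold lower, log2 −0.40, SE 0.07, adjusted p = 0.025), the smallest called difference and one of the most even. That call was lost with arrays centred on their medians (adjusted p = 0.0734) and with a trended robust prior (0.0586). Cpr49Ag, the brightest there, lay just outside the threshold (log2 −0.59, SE 0.13, adjusted p = 0.0507), with 8.84, 9.06 and 8.81 in the knock-out, against 9.41, 9.32 and 9.76 in w1118.

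The remaining clusters of 3 or more genes, at 72 and 76 on 3L, were mostly dim and held no called gene. At 72 all 3 genes lay below the median of all probe sets (6.3), and the cluster median was 0.04. Cpr72Ec, known for a protein of the adult corneal lens, was its brightest and had the largest difference (log2 −0.22, SE 0.15, adjusted p = 0.48). It read 5.35, 5.03 and 4.80 in the knock-out, against 5.40, 5.35 and 5.10 in w1118, and the groups overlapped. At 76 the cluster median was −0.09, and Cpr76Bb, the brightest, differed by −0.40 (SE 0.20, adjusted p = 0.327), with 6.14, 6.76 and 6.71 in the knock-out, against 6.97, 6.63 and 7.22 in w1118. Over these 10 clusters the cluster mean was lower in every knock-out array than in every w1118 array in 7, and overlapped at 47, 67 and 72. The margin was narrow at 76, with a highest knock-out mean of 5.85 and a lowest w1118 mean of 5.87. At 49 these were 6.05 and 6.10. All 4 genes at 76 had overlapping arrays.

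**Figure D4:**
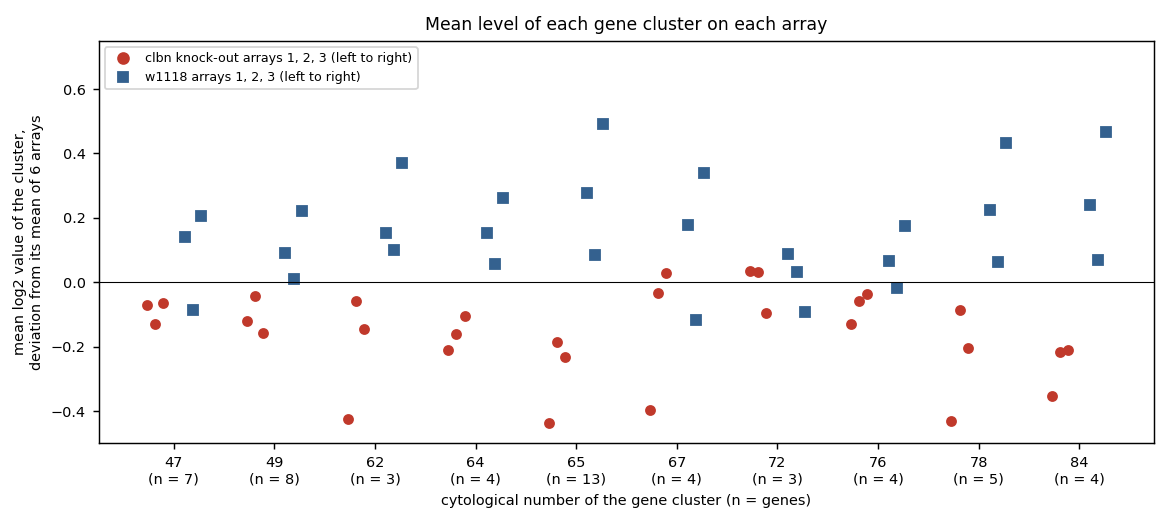
Mean log2 value of each cluster of 3 or more cuticle protein genes on each array (y axis, as the deviation from the cluster's mean of 6 arrays), with knock-out arrays as circles and w1118 arrays as squares. The groups are apart at 49, 62, 64, 65, 76, 78 and 84, narrowly so at 49 and 76, and overlap at 47, 67 and 72. In every cluster but 72, w1118 array 3 is the highest.

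Outside these clusters, 23 genes stood at cytological numbers with 1 or 2 measured members. Of them 8 (34.8%) were called lower, against 2.63% of all genes. Both genes at 66 on 3L fell. Cpr66Cb was 1.83-fold lower (log2 −0.88, SE 0.11, adjusted p = 0.00626), with 9.03, 9.41 and 9.21 in the knock-out arrays, against 9.98, 10.12 and 10.17 in the w1118 arrays. Cpr66D was 1.39-fold lower (log2 −0.47, SE 0.09, adjusted p = 0.0314), with 9.78, 9.93 and 9.97 in the knock-out, against 10.25, 10.39 and 10.46 in w1118. On 3R, Cpr92F fell 2.17-fold (log2 −1.12, SE 0.23, adjusted p = 0.0433), with 7.89, 8.84 and 8.47 in the knock-out, against 9.47, 9.30 and 9.77 in w1118. Knock-out array 1 was by far the lowest for this gene. Cpr97Ea, just inside the threshold, fell 1.41-fold (log2 −0.50, SE 0.10, adjusted p = 0.0443), with 7.39, 7.63 and 7.43 in the knock-out, against 7.93, 7.87 and 8.15 in w1118. Its call was lost with the block, as given above, and with arrays centred on their medians.

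On chromosome 2, 3 such genes were called besides Cpr49Ac. Cpr56F, also just inside the threshold, fell 1.58-fold (log2 −0.66, SE 0.14, adjusted p = 0.0445), with 9.27, 9.78 and 9.51 in the knock-out arrays, against 10.07, 10.12 and 10.34 in the w1118 arrays. Cpr50Cb fell 1.48-fold (log2 −0.57, SE 0.10, adjusted p = 0.0249), with 7.65, 7.87 and 7.70 in the knock-out, against 8.19, 8.27 and 8.45 in w1118. Cpr23B fell 1.49-fold (log2 −0.57, SE 0.11, adjusted p = 0.0374), with 8.03, 8.23 and 7.90 in the knock-out, against 8.54, 8.54 and 8.80 in w1118. Cpr51A, the brightest of all 80, was of like size but was not called (log2 −0.58, SE 0.14, adjusted p = 0.0735), with 12.45, 12.96 and 12.85 in the knock-out, against 13.32, 13.19 and 13.51 in w1118. None of the 4 genes on X was called by limma, and their differences lay between −0.47 and −0.10. In Cpr5C, Cpr11A and Cpr11B every knock-out array lay below every w1118 array, against 13.1% of all genes, and Cpr12A overlapped. Cpr5C, Cpr11A and Cpr11B were each called under 1 or 2 of the alternative settings. Pcp, a pupal cuticle protein gene nested in an intron of Gart, and Lcp9 were dim and differed by 0.07 and −0.04.

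Most calls fell among the brighter genes. Of the 44 genes whose mean over the 6 arrays lay above the median of all probe sets, 18 (40.9%) were called lower, against 3.19% of all genes above that level. Their median difference was −0.57, against 0.05 for all genes above that level. Of the 36 dimmer genes 2 (5.56%) were called lower, Cpr65Au and Edg78E, against 1.61% of all dimmer genes. The median difference of the 36 was −0.08, and 26 (72.2%) had differences below 0, against 44% of all genes. Among the 44 brighter genes 40 had differences below 0, and in 32 every knock-out array lay below every w1118 array, against 15.1% of all genes above that level. The 4 with differences above 0 were Cpr67B, Cpr67Fa2, Cpr67Fb and Cpr78E, named after their values were seen.

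**Figure D5:**
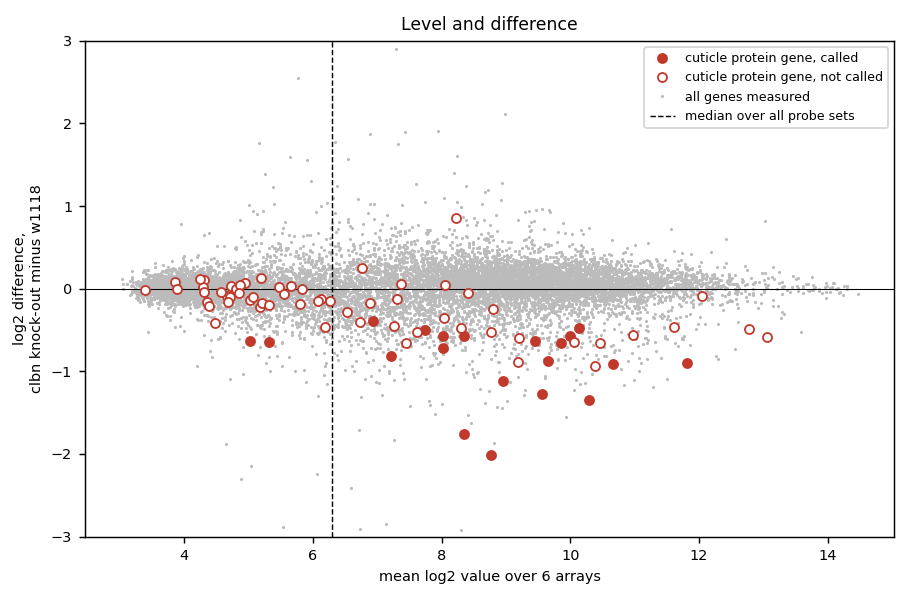
Log2 difference (knock-out minus w1118, y axis) against the mean log2 value over 6 arrays (x axis) for all genes (grey) and the 80 cuticle protein genes (circles, filled where called); 9 genes beyond 3 log2 units are not drawn. Cuticle protein genes right of the dashed median line lie mostly below 0 (median −0.57). Those left of it lie closer to 0 (median −0.08), with 26 of 36 below it.

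By chromosome, 16 of the 49 genes on chromosome 3 were called lower (32.7%), against 3.97% of all chromosome 3 genes. On X and 2 the count was 4 of 31 (12.9%), against 1.46% of all genes there. Among the brighter genes the median difference was −0.60 for the 30 on chromosome 3 and −0.50 for the 14 on X and 2. The measured genes next to the clusters were also read, a choice made after the values were seen. Around the 11 local groups of 3 or more genes (such as 65A and 65E), the 5 nearest measured genes on each side that are not cuticle protein genes came to 110. Of these 8 (7.27%) were called lower, all of them on arm 3L, against 2.63% of all genes and 3.97% of all chromosome 3 genes. By limma 0 were called higher, and the median difference of the 110 was 0.01. In the same local groups 11 of 52 cuticle protein genes were called lower (median −0.20). Not among the 110 were other measured genes inside a group (1 at 47E, 5 at 49A and 2 at 65A). The 5 genes on each side of 65A held no call and had a median of 0.01, against −0.56 for the 10 cuticle protein genes there. Around 84A they held none and had a median of 0.08, and around 65E 2 of 10 were called lower (median −0.17). Around 64A 2 of 10 were called lower, and their median of −0.14 was like the −0.13 of the 4 cuticle protein genes there. Around 72E 2 of 10 were called lower (median 0.05), and around 62B and 67F 1 of 10 each. The separation seen at 65A was thus not shared by every local group.

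The cuticle protein genes also varied together among arrays of 1 genotype. The mean of the 44 brighter genes was 8.52, 8.85 and 8.77 in the knock-out arrays 1 to 3, against 9.26, 9.08 and 9.52 in the w1118 arrays. All 3 knock-out arrays were lower, but the nearest arrays of the 2 genotypes, both numbered 2, were 0.223 apart. The arrays of a genotype spanned 0.335 in the knock-out and 0.445 in w1118. Knock-out array 1 was the lowest of its group for 34 of the 44 genes, and w1118 array 3 the highest of its group for all 44. The same orderings were not counted over all genes, so they are not shown to be particular to this family. Between same-numbered arrays, 64 of the 80 genes were lower in the knock-out for number 1, 55 for number 2 and 68 for number 3, against 43.4%, 46.9% and 46% of all genes. In all 3 pairs 46 genes were lower and 3 were higher, but the share of all genes that did so was not computed.

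Array quality and embryo stage were read beside these values. The 3′ minus 5′ difference of the control probe sets, which grows as RNA degrades, averaged 1.24, 0.729 and 0.667 in the knock-out arrays, against 0.779, 0.729 and 0.723 in the w1118 arrays. Knock-out array 1 stood apart in it, and without that array 15 cuticle protein genes were called lower, with a median of −0.21 over all 80. Genes of the cellular blastoderm, an early stage (13 of 17 measured), averaged 9.13, 9.20 and 8.57 in the knock-out, against 8.82, 9.04 and 8.69 in w1118. They overlapped between genotypes, with 0 called by limma and a median difference of 0.09, and 11 of the 13 had values above 0. The largest difference, that of zen, went the other way (log2 −1.09, SE 0.26, adjusted p = 0.0677), with every knock-out array below every w1118 array. In w1118 the mean of the blastoderm genes was highest in array 2 and lowest in array 3. There the mean of the brighter cuticle protein genes was lowest in array 2 and highest in array 3. In the knock-out both means were highest in array 2. Maternal germ plasm genes (5 of 6 measured) averaged 8.46, 8.28 and 8.04 in the knock-out, against 8.17, 8.36 and 7.89 in w1118 (median difference 0.20, 0 called). The part that RNA quality and the age mix of the collections had in the differences was not tested.

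Marker lists of differentiated tissues gave differing counts, to be read beside the 2.63% of all genes called lower and the 44% below 0. The lists were chosen with earlier results of these data known, so their counts are not an independent reading of a tissue. Of 9 body wall muscle genes measured 5 were called lower (median −0.42), and the list mean was 11.34 to 11.52 in the knock-out arrays, against 11.91 to 12.06 in the w1118 arrays. All 9 were below 0, and in all 9 every knock-out array lay below every w1118 array, against 13.1% of all genes. Of 8 midgut genes 3 were called lower (median −0.45; 6.56 to 6.76 in the knock-out, against 7.0 to 7.32 in w1118), but only 5 were below 0. The 3 called were LysX (log2 −2.42, SE 0.10, adjusted p = 2.38e-05), Npc2e (log2 −1.29, SE 0.11, adjusted p = 0.000994) and lambdaTry (log2 −0.68, SE 0.12, adjusted p = 0.0268). The midgut protease genes yip7 (log2 0.62, SE 0.16, adjusted p = 0.0806) and Jon65Aiii (log2 0.50, SE 0.12, adjusted p = 0.0784) were higher in every knock-out array and were not called. Of 8 neuronal genes 1 was called lower (median −0.33, with 7.27 to 7.49 in the knock-out, against 7.66 to 7.90 in w1118). The called gene was nrv3 (log2 −0.52, SE 0.11, adjusted p = 0.0463). All 8 neuronal genes were below 0, and in 3 of them every knock-out array lay below every w1118 array. Haemocyte genes overlapped (0 of 6 called and 3 below 0, median 0.0048, with 7.52 to 7.62 in the knock-out, against 7.55 to 7.63 in w1118). Tracheal genes did not overlap, by a narrow margin (0 of 4 called, median −0.29; 10.60 to 11.004 in the knock-out, against 11.011 to 11.11 in w1118). Of these 4 genes Gasp, verm and serp are also in the chitin list below and had values below 0, and btl, a receptor gene of tracheal cells, had a difference of 0.11 (SE 0.09, adjusted p = 0.563). Late epidermis genes other than cuticle proteins, among them grh, which encodes an epidermal transcription factor, and Osiris genes, overlapped as well. Of 14 measured 0 were called and 9 were below 0 (median −0.08), and the list mean was 10.80 to 11.02 in the knock-out arrays, against 10.86 to 11.03 in the w1118 arrays.

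Other genes of cuticle formation were read in the same fit. The Tweedle family is a separate family of cuticle proteins. All 24 measured had differences below 0 (median −0.48), against 44% of all genes, and 9 were called lower, against 2.63% of all genes. TwdlQ averaged 8.34 in the knock-out and 9.70 in w1118 (log2 −1.36, SE 0.13, adjusted p = 0.00148). TwdlC averaged 8.65 in the knock-out and 9.72 in w1118 (log2 −1.07, SE 0.15, adjusted p = 0.00992). Twdlbeta averaged 10.57 in the knock-out and 11.57 in w1118 (log2 −1.0, SE 0.17, adjusted p = 0.0221).

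None of 29 genes of chitin synthesis, chitin matrix and chitin turnover was called by limma (median −0.18), and 22 were below 0, against 44% of all genes. The list mean was 8.25 to 8.44 in the knock-out arrays, against 8.48 to 8.65 in the w1118 arrays. None of 10 genes of sclerotisation and pigmentation was called (median −0.05), nor of 14 regulators of epidermal and cuticle genes (median −0.02). The 2 members of each of these lists nearest to the threshold, named after their values were seen, are given here, and 5 of these 6 had values below 0. Of the chitin list, obst-E, which encodes a chitin-binding protein of the cuticle, averaged 9.38 in the knock-out and 10.23 in w1118 (log2 −0.85, SE 0.20, adjusted p = 0.0685). The gene reb, needed for chitin deposition, averaged 8.34 in the knock-out and 9.20 in w1118 (log2 −0.86, SE 0.21, adjusted p = 0.074). Of the sclerotisation list, stw, which encodes a laccase, averaged 9.73 in the knock-out and 10.19 in w1118 (log2 −0.46, SE 0.11, adjusted p = 0.0685). The pigmentation gene y averaged 8.79 in the knock-out and 9.58 in w1118 (log2 −0.79, SE 0.19, adjusted p = 0.0739). Of the regulators, the nuclear receptor gene Hr3 averaged 6.5 in the knock-out and 5.90 in w1118 (log2 0.60, SE 0.13, adjusted p = 0.0551). The nuclear receptor gene ftz-f1, which is required for cuticle differentiation in the embryo, averaged 10.50 in the knock-out and 11.11 in w1118 (log2 −0.62, SE 0.17, adjusted p = 0.106).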

How the data were processed

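The authors' deposited table holds log2 expression values of 18769 probe sets and 183 Affymetrix controls on 6 arrays; the log2 scale was read from the values (2.84 to 14.52). Per the submitters' processing notes affy was used; the background correction and normalisation are not stated in the sources read, and no further normalisation was applied. Probe sets were named from the platform annotation supplied, which can be old (13647 with 1 symbol, 402 with several, 4720 not listed), and RefSeq (Release 6 plus ISO1 MT) gave chromosome and gene order only. The array's build is not given, so no coordinates are printed; protein and promoter sequences were not used here.

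The difference knock-out minus w1118 was fitted by lmFit and eBayes (limma 3.58.1, R 4.3.3) without covariates, with Benjamini-Hochberg adjustment over all probe sets; SE is that of the moderated fit. The script was tested on simulated data. Tables and plots were made in Python 3.11.15 with pandas 2.3.3 and matplotlib 3.10.9. The number of arrays limits the precision.

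Same-numbered arrays deviated together from their group means (r = 0.252, 0.227 and 0.389 over probe sets), so the number was used as a block in an alternative fit; no label says what it marks. Members and lists (Tweedle, chitin, sclerotisation, regulators, tissue and stage markers) were chosen with earlier results of these data known. Named genes are all called members, the brightest and the most different of each cluster of 3 or more, the 2 nearest the threshold on each side and up to 3 called genes per other cuticle list; others are said to be chosen after their values were seen, or complete a cluster or chromosome described.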

Additional observations from a re-analysis of the deposited data

How the results depend on the processing

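The limits were the 3 arrays per genotype, single arrays on which calls rested, and dim genes whose signal cannot be told from background. Over fits without 1 array, 5 to 15 members were called lower and 0 to 1 higher, with a median of −0.33 to −0.20 and cluster medians of −0.20 to −0.049 at 49, −0.72 to −0.56 at 78 and −0.73 to −0.50 at 84. At 67 and 72 such fits gave −0.07 to 0.13 and −0.01 to 0.09. With array weights 31 members were called lower and 1 higher, against 832 probe sets lower in all. With arrays centred on their medians 20 members were called lower and 1 higher, and the median over all 80 was −0.16. In that fit the cluster medians nearest 0 shifted most in proportion: −0.069 at 47, −0.037 at 49, −0.056 at 64, 0.12 at 67, 0.12 at 72 and −0.019 at 76. With adjustment over genes 1 was called higher. The gene called higher was Cpr67Fa2 each time.

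With only probe sets above the median, which left 44 members, their median was −0.57, and it was −0.56 at 47, −0.46 at 49, −0.50 at 64, −0.40 at 76 (1 gene) and −0.89 at 78. With only those above the first quartile, which left 73, it was −0.40 over all members and −0.26 at 49. At 72 it turned to −0.088, since the filter left 2 genes there. In these filtered fits fewer genes were counted and no gene's own difference changed. With the replicate block 22 members were called lower and 0 higher (591 of all probe sets lower, against 389 without the block), and the changed calls are given above. Of 1157 single-gene values recomputed 1054 kept their side of the threshold, 72 lost a call, 31 gained one and 0 called ones reversed.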
